A study of Mus musculus with 4 samples.

Results

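The insulin-like growth factor (IGF) binding proteins, the IGF and insulin receptors and the ligand Igf2 were followed through 4 RNA-seq libraries of mouse neural stem cells. The set holds 10 of the 17621 genes in the deposited tables: 6 binding proteins (Igfbp2, Igfbp3, Igfbp4, Igfbp5, Igfbp6 and Igfbp7), 3 receptors (Igf1r, Insr and Igf2r) and 1 ligand (Igf2). Each gene was found by its Entrez gene ID, and the deposited values of its transcripts were summed. The genes were chosen by family with the expression values of these same 4 libraries in view, so their levels and ratios are given as a description and carry no test. Levels are in CPM, the count of a gene relative to the scaled total of its library, and Igfbp6 lay below the minimum mean of 1 CPM asked of a gene before its ratio was counted, which leaves 9 members with a counted ratio.

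The cells were primary neural stem cells cultured from the cortex of newborn (P0) mice on laminin and poly-L-ornithine, and total RNA was sequenced. The design crosses genotype with day, to follow loss of Seh1 during proliferation and after the start of differentiation. The iKO cells had the genotype cmv-cre-ert,seh1 f/f and the Ctrl cells the genotype Seh1 f/f, so floxed Seh1 alleles are common to all 4 libraries and the recombinase, driven by the CMV promoter, is present in the iKO cells alone. Cre-ERT joins the recombinase Cre to the ligand-binding part of an estrogen receptor, so that a drug can switch it on, and the labels say nothing of such a drug. Any effect of the recombinase or of an inducer therefore cannot be told apart from that of Seh1 loss. Day 3 libraries came from differentiation medium, from which EGF and bFGF had been withdrawn, and day 0 libraries from growth medium that held both factors with N-2 and B27, supplements that contain insulin. Mouse strain, sex and whether any library pools several animals are not given. There was 1 library for each of the 4 groups, so replicates cannot check any difference, and p-values are not given.

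IGF1 and IGF2 signal through the receptor tyrosine kinase IGF1R, and insulin through the related INSR, a form of which also binds IGF2. The binding proteins IGFBP1 to IGFBP6 hold IGFs with high affinity outside the cell, where they carry the ligand, limit its access to IGF1R and, once cleaved by proteases, release it. IGF2R, the cation-independent mannose 6-phosphate receptor, takes up IGF2 for breakdown and sorts lysosomal enzymes. In the developing brain these factors act on the survival and growth of neural progenitors, and Igfbp2 is abundant in the neuroepithelium and later in astroglia.

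The promoter windows of the 3 binding proteins that differed most between the day 3 libraries are shown with that of Igfbp5, which behaved differently between the days. Each is the 250 bases before a RefSeq start on GRCm38.p6 (the same build as mm10), printed 5′ to 3′ on the strand of the gene. Capitals mark matches, on either strand, to 6 motifs: the GC box GGGCGG, the TATA box TATAAA, a FoxO site GTAAACA, an AP-1 site TGACTCA, the E-box CACGTG and a p53 response element unit of 10 bases.
Igfbp2, chr1:72824230-72824479, plus strand: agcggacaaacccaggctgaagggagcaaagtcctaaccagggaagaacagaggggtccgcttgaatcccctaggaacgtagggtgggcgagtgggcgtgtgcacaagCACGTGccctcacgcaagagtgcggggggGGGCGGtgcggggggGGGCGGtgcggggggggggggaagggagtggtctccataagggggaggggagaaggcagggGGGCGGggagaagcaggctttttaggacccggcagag
Igfbp3, chr11:7213924-7214173, minus strand: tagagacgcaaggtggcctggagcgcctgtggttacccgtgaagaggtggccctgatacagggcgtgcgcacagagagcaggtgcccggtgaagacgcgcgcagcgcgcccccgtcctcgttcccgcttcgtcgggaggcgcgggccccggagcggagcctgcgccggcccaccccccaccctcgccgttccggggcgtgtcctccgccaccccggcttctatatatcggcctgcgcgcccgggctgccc
Igfbp4, chr11:99040994-99041243, plus strand: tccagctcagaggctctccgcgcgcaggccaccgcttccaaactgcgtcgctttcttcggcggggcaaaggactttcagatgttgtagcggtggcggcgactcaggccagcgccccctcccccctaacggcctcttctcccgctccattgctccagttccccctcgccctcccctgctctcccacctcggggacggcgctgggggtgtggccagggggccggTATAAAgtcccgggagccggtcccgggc
Igfbp5, chr1:72874866-72875115, minus strand: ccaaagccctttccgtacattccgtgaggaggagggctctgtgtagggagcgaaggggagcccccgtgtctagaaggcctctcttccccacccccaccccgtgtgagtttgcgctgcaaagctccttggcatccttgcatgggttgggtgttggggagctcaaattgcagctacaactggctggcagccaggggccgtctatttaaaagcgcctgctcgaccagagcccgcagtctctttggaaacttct

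The Igfbp2 window held 3 GC boxes, which began at positions -113, -98 and -37 from the start, and 1 E-box, which began at -142. The Igfbp4 window held 1 TATA box at -28, and the windows of Igfbp3 and Igfbp5 held none of the 6 motifs as spelled. Other spellings of the TATA box were not searched. Over 32851 mouse promoter windows of the same length, 32.7% held the GC box, 12.4% the TATA box, 6.02% the E-box, 4.46% the AP-1 site, 3.17% the FoxO site and 7.13% the p53 unit. G and C made up 67.2% of the Igfbp2 window, 73.2% of that of Igfbp3, 69.2% of that of Igfbp4 and 58.8% of that of Igfbp5, against a median of 52.4% over all windows. The Igfbp3 window held 32 CpG dinucleotides, that of Igfbp4 22, that of Igfbp2 14 and that of Igfbp5 10. No motif of the 6 occurred in all of the windows of Igfbp2, Igfbp3 and Igfbp4. A high G and C content was not particular to these genes, since the windows of Igf1r (77.6%), Igfbp7 (74.0%) and Igf2r (69.2%) had as much. The window before a second annotated start of Igfbp2 (chromosome 1, 72825137 to 72825386), which is not printed, was 56.4% G and C and held 1 AP-1 match at -39. A match is a description of letters only. RefSeq windows were matched for 9 of the 10 members. Igfbp2 (gene ID 16008, chromosome 1, 72824480 to 72852474) and Igfbp5 (16011, chromosome 1, 72858065 to 72874865) are neighbours on opposite strands with their 3′ ends facing each other. Igfbp3 (16009, 7206086 to 7215498) and Igfbp4 (16010, 99040005 to 99052655) both lie on chromosome 11, far apart. The printed windows of Igfbp3 and Igfbp4 lie inside these spans, which reach further upstream. The bases before the outer ends of these spans were not searched.

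The libraries held 19611747 expected counts for iKO and 19745908 for Ctrl at day 3, and 20625852 for iKO and 21040586 for Ctrl at day 0. CPM after TMM scaling is used where libraries are compared, and deposited FPKM, which corrects for transcript length, where genes are compared. Intervals are 95% intervals of counting error only, from reads without molecular identifiers. Seh1l, which encodes the targeted Seh1, was at 11.03 CPM in iKO against 33.2 CPM in Ctrl at day 3, and at 19.2 CPM in iKO against 40.3 CPM in Ctrl at day 0. All 10 neural stem and progenitor markers had counts in each library, and their summed level, most of it from Slc1a3, Vim and Fabp7, was 10408 CPM in iKO against 10491 CPM in Ctrl at day 3, and 7625 CPM in iKO against 7127 CPM in Ctrl at day 0. At day 3, Prom1 passed 2-fold upward in iKO (10.2 CPM in iKO against 3.18 CPM in Ctrl) and Hes5 downward (15.1 CPM in iKO against 110.5 CPM in Ctrl). At day 0, Hes5 alone passed, downward, and 8 of the 10 had log2 ratios below 0 (median -0.22). In bulk samples such as these, fewer cells of a type and less RNA per cell cannot be told apart.

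Igfbp2 and Igfbp3 were the leading members in every library, and Igfbp2 ranked among the most abundant of all genes. Igfbp2, which binds IGF2 with some preference and can also bind the cell surface, was at 1607 FPKM in iKO and 546 FPKM in Ctrl at day 3, and at 2151 FPKM in iKO and 1630.0 FPKM in Ctrl at day 0. By FPKM it was gene number 15 of the library in iKO and 59 in Ctrl at day 3, and number 3 in iKO and 11 in Ctrl at day 0. Igfbp3, the main carrier of IGFs in serum, followed with 609 FPKM in iKO and 96.5 FPKM in Ctrl at day 3, and 669 FPKM in iKO and 380.2 FPKM in Ctrl at day 0. The Ctrl library of day 3 was the lowest of the 4 for both genes.

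Below these, Igfbp4 lay between 11.9 FPKM, in Ctrl at day 3, and 64.7 FPKM, in iKO at day 0, and Igfbp5 between 6.50 FPKM, in Ctrl at day 0, and 21.0 FPKM, in iKO at day 3. Among the receptors, Insr lay between 7.95 and 13.8 FPKM, above Igfbp5 in Ctrl at day 0 and below it at day 3, Igf1r between 4.75 and 6 FPKM and Igf2r between 3.69 and 7.25 FPKM. Igfbp7 reached at most 4.51 FPKM, Igf2 2.76 FPKM and Igfbp6 0.64 FPKM. The order Igfbp2, Igfbp3, Igfbp4 held in all 4 libraries, except that in Ctrl at day 3 the counting intervals of Igfbp4 (11.9 FPKM) and Igfbp5 (11.5 FPKM) overlapped. Other neighbours whose intervals overlapped were Igf1r with Igfbp7, Igfbp7 with Igf2r and Igf2 with Igfbp6 in iKO at day 3, Igf2r with Igfbp7 and Igfbp6 with Igf2 in Ctrl at day 3, Insr with Igfbp5 and Igf2 with Igfbp7 in iKO at day 0, and Igf1r with Igf2r in Ctrl at day 0.

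**Figure D1:**
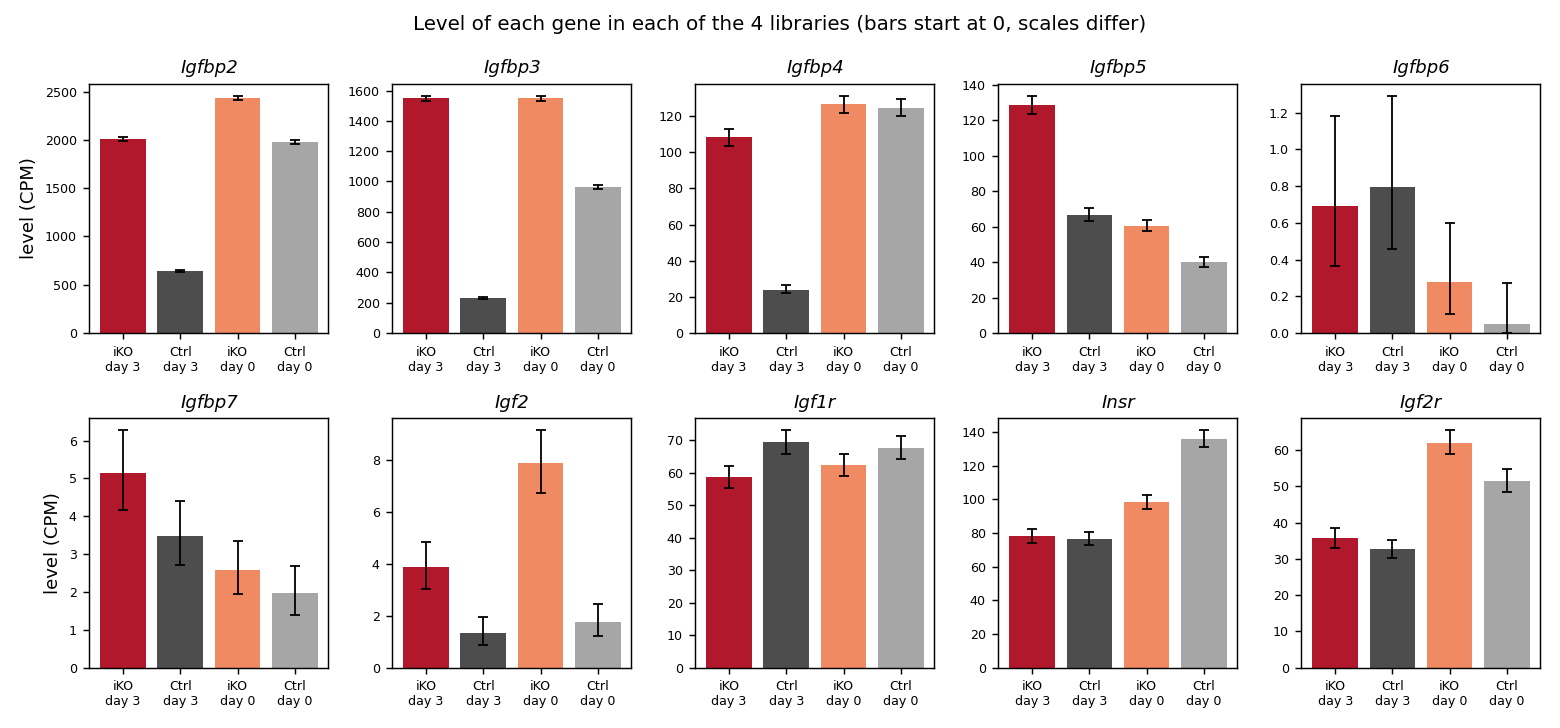
Level of each of the 10 members in the 4 libraries, 1 panel per gene with its own axis from 0 in CPM after TMM scaling, 1 library per bar, and error bars for 95% Poisson intervals of counting error. In the Igfbp2, Igfbp3 and Igfbp4 panels the Ctrl library of day 3 has the shortest bar (644, 232 and 24.1 CPM), whereas the receptor bars lie between 32.7 and 136 CPM.

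A gene was counted as past 2-fold where its ratio on the log2(CPM + 1) scale was 1 or more in size, a scale that understates low genes, while folds are plain ratios of CPM. Between iKO and Ctrl at day 3, Igfbp2, Igfbp3, Igfbp4 and Igf2 passed 2-fold with the higher level in iKO, and no member passed 2-fold in the other direction. These are 4 of the 9 members with a counted ratio, where 6.27% of all 12976 genes were higher by 2-fold or more and 4.76% lower. At day 0, Igf2 alone passed 2-fold, higher in iKO, with 0 members lower, where 2.67% of all genes were higher and 0.331% lower. The members were chosen with these ratios known, so nothing is read from those shares. The 5 binding proteins with a counted ratio had a median log2 ratio of iKO to Ctrl of 1.64 at day 3 and 0.30 at day 0, and the 3 receptors 0.03 at day 3 and -0.12 at day 0. The same medians over all genes were -0.01 at day 3 and -0.06 at day 0.

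**Figure D2:**
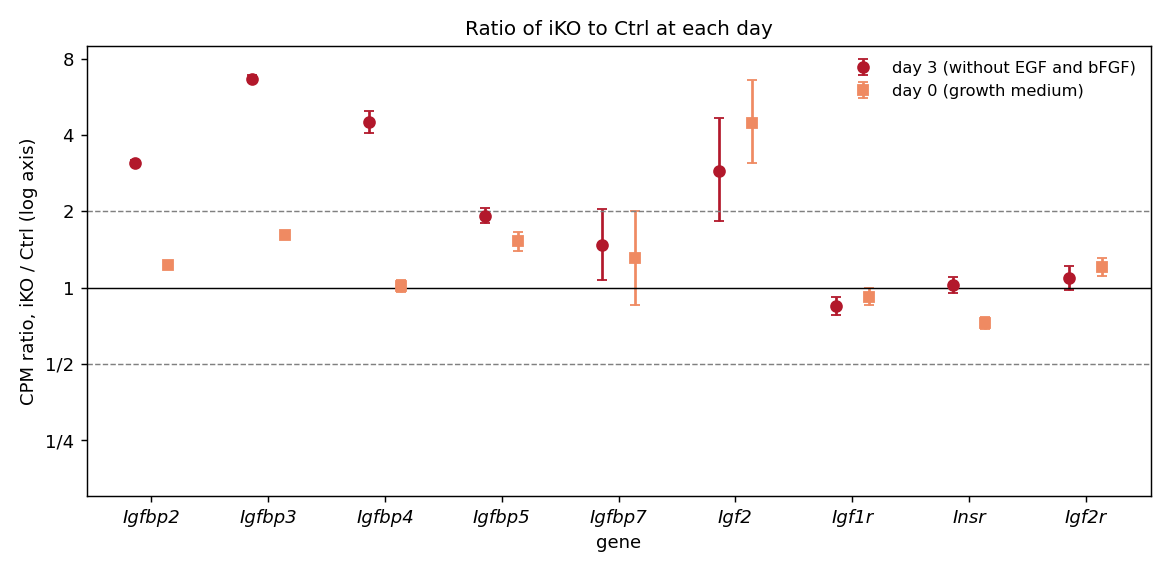
Ratio of CPM in iKO to CPM in Ctrl on a log axis for 9 members at day 3 (circles) and day 0 (squares), with 1 library per group and error bars for 95% intervals of counting error. Dashed lines mark 2-fold. The day 3 points of Igfbp3 (6.68), Igfbp4 (4.50), Igfbp2 (3.11) and Igf2 (2.88) lie above 2, as does the day 0 point of Igf2 (4.46).

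Igf2, the ligand, was a low gene in all 4 libraries. It had 73 expected counts (3.87 CPM) in iKO and 27 (1.34 CPM) in Ctrl at day 3, and 172 (7.89 CPM) in iKO and 36 (1.77 CPM) in Ctrl at day 0. Both iKO libraries thus lay above both Ctrl libraries. The ratio of CPM was 2.88-fold at day 3 (1.83 to 4.66) and 4.46-fold at day 0 (3.10 to 6.57), or 1.06 and 1.68 on the log2(CPM + 1) scale. With a pseudocount of 5 CPM, the log2 ratio was 0.48 at day 3 and 0.93 at day 0. At 3.87 CPM or below at day 3, the Igf2 ratio rests on few reads. In the deposited transcript estimates the model with the most upstream start carried 43.0 of the counts in iKO and 5.91 in Ctrl at day 3, and 57.2 in iKO and 36.0 in Ctrl at day 0, when it held all of the Ctrl counts. Igf2 lies inside the span of Gm49394 on the same strand and across from its antisense partner Igf2os over 7124 bases, and whether counting used the strand is not stated, so its reads cannot be told apart from theirs.

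Igf1, the other IGF ligand, had few counts, with 10 in iKO and 2 in Ctrl at day 3, and 13 in iKO and 5 in Ctrl at day 0. Igfbpl1, a binding-protein-like gene of immature neurons, was at 4.72 CPM in iKO against 9.75 CPM in Ctrl at day 3, a log2 ratio of -0.91, and at 9.77 CPM in iKO against 10.5 CPM in Ctrl at day 0. Igfbp1, a binding protein mostly made by liver, had 2 counts in iKO and 0 in Ctrl at day 3, and 6 in iKO and 0 in Ctrl at day 0. Igfals, the acid-labile subunit that joins IGFBP3 in serum, had between 2 and 7 counts. Ins1 and Ins2 were not analysed here.

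The receptor genes differed little between genotypes. Igf1r, the signalling receptor for both IGFs, was at 58.7 CPM in iKO against 69.4 CPM in Ctrl at day 3, and at 62.4 CPM in iKO against 67.7 CPM in Ctrl at day 0. Its log2 ratios were -0.24 at day 3 and -0.12 at day 0, and the day 0 sign turned to 0.01 with library totals and 0.02 with FPKM. Insr, the insulin receptor, was at 78.3 CPM in iKO against 76.6 CPM in Ctrl at day 3, and at 98.5 CPM in iKO against 136 CPM in Ctrl at day 0. The genotypes were thus close at day 3, with a log2 ratio of 0.03 that became -0.05 with library totals or FPKM. At day 0 Insr was 1.38-fold lower in iKO, with a log2 ratio of -0.46. Igf2r, the clearing receptor, was at 35.6 CPM in iKO against 32.7 CPM in Ctrl at day 3, and at 62.0 CPM in iKO against 51.5 CPM in Ctrl at day 0, which gave log2 ratios of 0.12 and 0.26. Per length, the 3 receptors summed to 16.5 FPKM in iKO and 17.9 FPKM in Ctrl at day 3, and to 23.9 FPKM in iKO and 24.96 FPKM in Ctrl at day 0. The ratio of Insr to Igf1r in FPKM was 1.67 in iKO and 1.38 in Ctrl at day 3, and 1.93 in iKO and 2.45 in Ctrl at day 0. Igf2r shares 28354 bases with the antisense Airn gene, which was not analysed here, and Insr shares 938 bases with an antisense gene.

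Among the binding proteins, Igfbp3 showed the widest gap. It was at 1549 CPM in iKO against 232 CPM in Ctrl at day 3, and at 1551 CPM in iKO against 964 CPM in Ctrl at day 0. The iKO libraries of both days were thus close to each other, and the Ctrl library of day 3 stood apart from the other 3. Igfbp3 was 6.68-fold higher in iKO at day 3 (6.48 to 6.89), rank 24 from the top of all genes by log2 ratio, and 1.61-fold higher at day 0 (1.58 to 1.64). Its day 3 log2 ratio of 2.74 ranged between 2.65 and 2.74 over 8 alternative settings.

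Igfbp4, an inhibitory binding protein that is cut by the protease PAPP-A, was at 108 CPM in iKO against 24.1 CPM in Ctrl at day 3, and at 127 CPM in iKO against 125 CPM in Ctrl at day 0. Here 3 libraries lay close together and the Ctrl library of day 3 was far below them. Igfbp4 was 4.50-fold higher in iKO at day 3 (4.07 to 4.97), rank 90, and 1.02-fold at day 0 (0.962 to 1.07), where the counting interval includes 1. Igfbp2 was at 2006 CPM in iKO against 644 CPM in Ctrl at day 3, and at 2439 CPM in iKO against 1979 CPM in Ctrl at day 0. It was 3.11-fold higher in iKO at day 3 (3.05 to 3.18), rank 242, and 1.23-fold higher at day 0 (1.22 to 1.25).

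Igfbp5, a matrix-bound binding protein, and Igfbp7, which binds IGFs weakly, had another pattern. Igfbp5 was at 129 CPM in iKO against 66.8 CPM in Ctrl at day 3, and at 60.5 CPM in iKO against 39.8 CPM in Ctrl at day 0. Each iKO library lay above the Ctrl library of its day, and each day 3 library above both day 0 libraries, although the counting intervals of Ctrl at day 3 and iKO at day 0 overlap. Igfbp5 was 1.93-fold higher in iKO at day 3 (1.80 to 2.06), just under the 2-fold threshold with a log2 ratio of 0.94, and 1.52-fold higher at day 0 (1.39 to 1.66). Igfbp7 was at 5.14 CPM in iKO against 3.48 CPM in Ctrl at day 3, and at 2.57 CPM in iKO against 1.97 CPM in Ctrl at day 0. Its ratio was 1.48-fold at day 3 (1.07 to 2.04) and 1.31-fold at day 0 (0.855 to 2.01). Igfbp7 shares 7085 bases with an antisense gene and 85 bases with the protein-coding Polr2b on the other strand. Its expected counts were fractional although it has 1 transcript model (97.29 in iKO and 70.49 in Ctrl at day 3). Whether counting used the strand is not stated, so its reads cannot be told apart from those of these genes. Igfbp6, which prefers IGF2, had 13 counts in iKO and 16 in Ctrl at day 3, and 6 in iKO and 1 in Ctrl at day 0. A ratio of 0.866 at day 3 had an interval of 0.383 to 1.92, so no difference in Igfbp6 between the genotypes was detectable at day 3 at this depth. At day 0 the interval was 0.679 to 257, and between the days in Ctrl, where the lower library had 1 count, the ratio was 16.2 (2.51 to 679).

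Between day 3 and day 0 the genotypes gave different values for the same genes. In Ctrl, 3 of the 9 members passed 2-fold downward at day 3 (Igfbp2, Igfbp3 and Igfbp4) and 0 upward, where 15.1% of all genes were lower and 14.6% higher. In iKO, Igfbp5 alone passed 2-fold upward at day 3 on the log2(CPM + 1) scale and 0 members downward, where 11.2% of all genes were higher and 11.4% lower. Of the low genes, Igf2 was 2.04-fold lower and Igfbp7 2.0-fold higher as a plain ratio of CPM, and neither was counted. By deposited FPKM, 38.7% of the genes that passed 2-fold between the days in iKO were higher, against 49.6% after TMM scaling, and Igfbp5 then did not pass.

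In Ctrl, Igfbp4 was 5.18-fold lower at day 3 than at day 0, Igfbp3 4.16-fold lower and Igfbp2 3.07-fold lower, with log2 ratios of -2.33, -2.05 and -1.62. In iKO, Igfbp4 was 1.17-fold lower, Igfbp2 1.22-fold lower, and Igfbp3 had a ratio of 0.999 (0.984 to 1.015). The levels of these 3 genes in iKO thus stayed near those of day 0. Igfbp5 was 2.13-fold higher at day 3 in iKO (1.99 to 2.28) and 1.68-fold higher in Ctrl, and Igfbp7 2.0-fold higher in iKO and 1.77-fold higher in Ctrl. Among the receptors, Igf2r was 1.74-fold lower at day 3 in iKO and 1.58-fold lower in Ctrl, and Insr 1.26-fold lower in iKO and 1.77-fold lower in Ctrl. Igf1r had log2 ratios of -0.09 in iKO and 0.03 in Ctrl. Igf2 had log2 ratios of -0.87 in iKO and -0.24 in Ctrl on the log2(CPM + 1) scale.

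**Figure D3:**
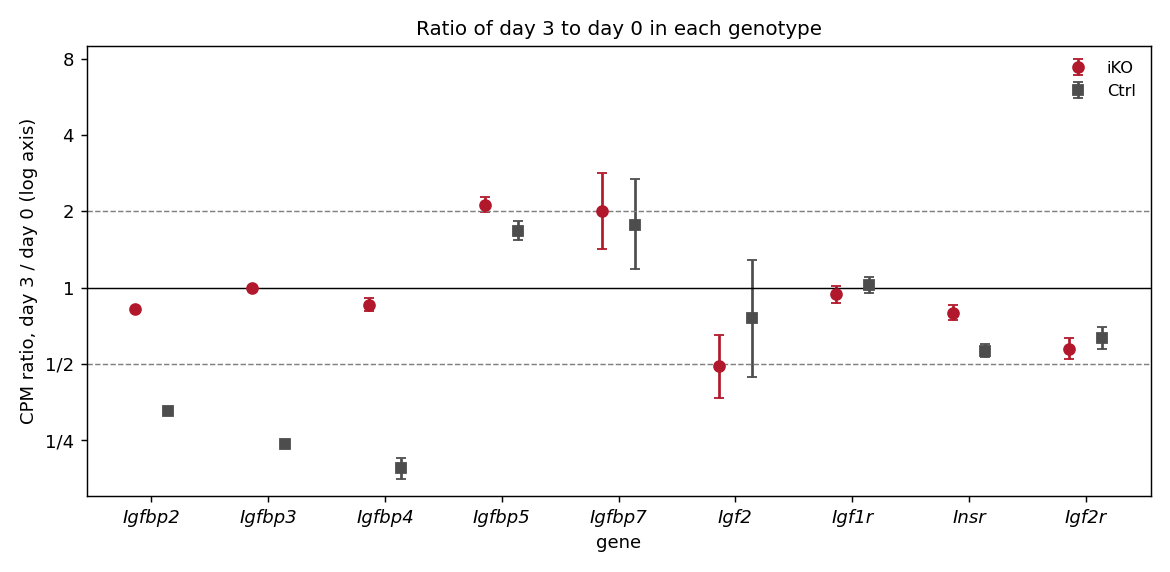
Ratio of CPM at day 3 to CPM at day 0 on a log axis for 9 members in iKO (circles) and in Ctrl (squares), with 1 library per group and error bars for 95% intervals of counting error. Dashed lines mark 2-fold. Igfbp2, Igfbp3 and Igfbp4 lie between 0.822 and 0.999 in iKO and between 0.193 and 0.326 in Ctrl, while Igfbp5 and Igfbp7 lie above 1 in both.

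The day 3 log2 ratio of iKO to Ctrl minus that of day 0 was 2.10 for Igfbp4, 2.05 for Igfbp3 and 1.34 for Igfbp2. It was 0.34 for Igfbp5, 0.19 for Igfbp7, 0.49 for Insr, -0.12 for Igf1r, -0.14 for Igf2r and -0.63 for Igf2. The median of this difference over all genes was 0.06, with 3.71% of genes at 1 or above and 5.50% at -1 or below. With 1 library per group the difference was not tested.

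The pool of binding protein RNA followed its largest members. The 6 genes summed to 2293 FPKM in iKO and 669.6 FPKM in Ctrl at day 3, and to 2898 FPKM in iKO and 2077 FPKM in Ctrl at day 0. Their share of all expected counts was 0.365% in iKO and 0.0989% in Ctrl at day 3, and 0.442% in iKO and 0.300% in Ctrl at day 0. Within the pool, Igfbp2 held 70.1% of the FPKM in iKO and 81.5% in Ctrl at day 3, and 74.2% in iKO and 78.5% in Ctrl at day 0. Igfbp3 held 26.6% in iKO and 14.4% in Ctrl at day 3, and 23.1% in iKO and 18.3% in Ctrl at day 0. The FPKM ratio of Igfbp2 to Igfbp3 was therefore smaller in each iKO library, at 2.64 in iKO and 5.66 in Ctrl at day 3, and 3.22 in iKO and 4.29 in Ctrl at day 0. The longer Igfbp2 transcript model, with the upstream start, held 72.1% of the gene's FPKM in iKO and 72.5% in Ctrl at day 3, and 71.1% in iKO and 64.8% in Ctrl at day 0, so its share at day 3 was alike in both genotypes.

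**Figure D4:**
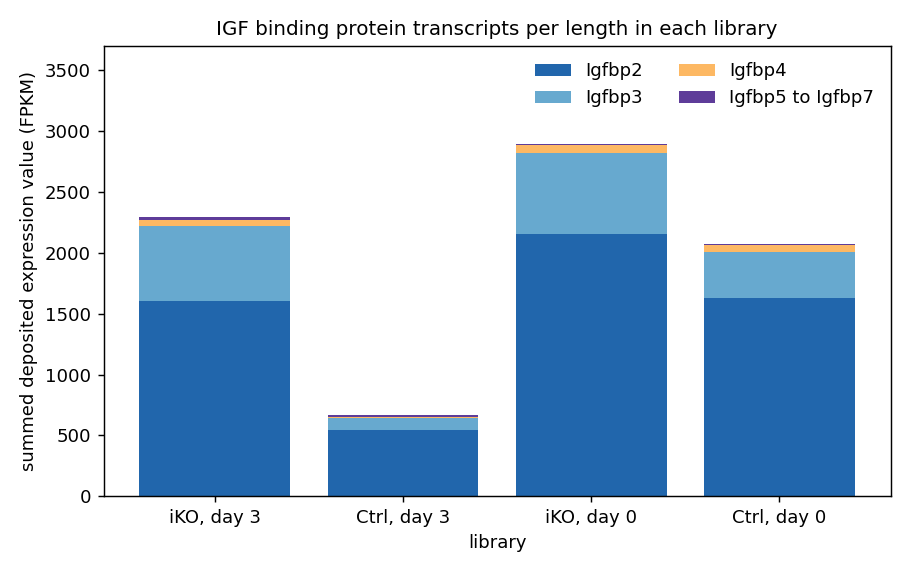
Summed FPKM of the binding proteins in each library, stacked by gene, with 1 library per bar and no error bars. The Ctrl library of day 3 is the smallest (669.6 FPKM), and Igfbp2 makes up 70.1% to 81.5% of each bar.

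Genes of the surrounding pathway, from lists chosen with earlier values of these libraries known, were set beside the members. Of all genes, 6.27% were higher in iKO and 4.76% lower at day 3, and 2.67% higher and 0.331% lower at day 0. At day 3 against day 0, 11.2% were higher and 11.4% lower in iKO, and 14.6% higher and 15.1% lower in Ctrl. Nothing is read from the counts of these lists, or of the marker lists, against those shares. Of 10 measured proteases and inhibitors of proteases that act on binding proteins, 3 passed 2-fold upward in iKO at day 3 and 0 downward (median log2 ratio 0.66), and 1 was higher at day 0 and 0 lower (median 0.30). Mmp2, a metalloproteinase that can cut several of the binding proteins, was at 3.34 CPM in iKO against 0.199 CPM in Ctrl at day 3, a log2 ratio of 1.86, and at 11.6 CPM in iKO against 4.57 CPM in Ctrl at day 0, a log2 ratio of 1.17. Plau, the urokinase plasminogen activator, was at 2.70 CPM in iKO against 0.398 CPM in Ctrl at day 3, a log2 ratio of 1.41. Both day 3 ratios rest on few reads, with 63 counts in iKO and 4 in Ctrl for Mmp2, and 51 in iKO and 8 in Ctrl for Plau. Ctsd, the lysosomal protease cathepsin D, was at 1137 CPM in iKO against 482 CPM in Ctrl at day 3, 2.36-fold higher in iKO. Between the days, 2 of these 10 were higher and 4 lower at day 3 in iKO, and 1 was higher and 5 lower in Ctrl. Adam12, a protease whose human form can cut IGFBP3 and IGFBP5, was at 124 CPM in iKO against 77.1 CPM in Ctrl at day 3, and at 485 CPM in iKO against 460.5 CPM in Ctrl at day 0. The genes for the PAPP-A proteases themselves, Pappa and Pappa2, had at most 7 counts in any library.

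Downstream of the receptors, 0 of 25 measured adaptors and kinases passed 2-fold upward in iKO at day 3 and 2 downward (median log2 ratio -0.16), and at day 0 none passed in either direction (median -0.11). Grb10, an adaptor that inhibits both receptors, was at 0.636 CPM in iKO against 3.03 CPM in Ctrl at day 3, a log2 ratio of -1.30. Pik3cb, a catalytic subunit of PI 3-kinase, was at 10.9 CPM in iKO against 27.0 CPM in Ctrl at day 3, a log2 ratio of -1.23. Between the days, 1 of the 25 was higher and 1 lower at day 3 in iKO, and 3 were higher and 2 lower in Ctrl. Of these, Irs1, a docking protein for both receptors, was at 42.1 CPM in Ctrl at day 3 and 100.4 CPM in Ctrl at day 0.

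None of the 4 FoxO factors, which insulin and IGF signals hold out of the nucleus, passed 2-fold between genotypes on either day, although Foxo1 and Foxo3 had day 3 log2 ratios of 0.94 and 0.88. Of 17 FoxO target genes, 4 passed 2-fold upward in iKO at day 0 and 0 downward (median 0.23), and 0 passed in either direction at day 3 (median 0.11). Fbxo32, a ubiquitin ligase of muscle atrophy, was at 18.7 CPM in iKO against 5.07 CPM in Ctrl at day 0, a log2 ratio of 1.70. Txnip, which limits glucose uptake, was at 24.6 CPM in iKO against 9.001 CPM in Ctrl at day 0, a log2 ratio of 1.36. Between the days, 5 of the 17 were higher and 0 lower at day 3 in iKO, and 8 were higher and 1 lower in Ctrl. The list includes Insr itself.

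Of 5 measured regulators of Igf2 expression, 3 were at least 2-fold lower at day 3 in iKO and 3 in Ctrl, with 0 higher in either. Hmga2, a chromatin protein that raises Igf2bp2 expression, was at 1.22 CPM in iKO against 1.19 CPM in Ctrl at day 3, and at 20.8 CPM in iKO against 14.6 CPM in Ctrl at day 0. Between genotypes, Igf2bp3, whose human form binds IGF2 mRNA, was the single gene past 2-fold, with a log2 ratio of -1.06 at day 3, and none passed at day 0. Plagl1, a zinc finger factor, was at 51.5 CPM in iKO against 30.8 CPM in Ctrl at day 3, and at 47.5 CPM in iKO against 30.3 CPM in Ctrl at day 0. Of 13 partners of the binding proteins other than IGFs, Fn1 (fibronectin) alone passed 2-fold upward in iKO at day 3, with 32.2 CPM in iKO against 10.7 CPM in Ctrl, with 0 lower and none past 2-fold at day 0. Between the days, 2 of the 13 were higher and 2 lower at day 3 in iKO, and 2 were higher and 5 lower in Ctrl. None of the 7 mannose 6-phosphate pathway genes that work with Igf2r passed 2-fold in any of the 4 comparisons.

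Markers of other cell types differed between the same libraries. The 10 astrocyte markers summed to 22029 CPM in iKO against 12833 CPM in Ctrl at day 3, and to 2504 CPM in iKO against 1299 CPM in Ctrl at day 0. Apoe made up most of the day 3 sums, at 12096 CPM in iKO against 6765 CPM in Ctrl. Of the 10, 2 passed 2-fold upward in iKO at day 3 and 4 at day 0, with 0 downward. At day 3, 8 of the 10 had log2 ratios above 0 and 2 below (median 0.79). The astrocyte sums were thus higher at day 3 in both genotypes. In Ctrl, Igfbp2, Igfbp3 and Igfbp4 were lower at day 3, and any link to these sums was not tested. The 10 oligodendrocyte lineage markers summed to 3586 CPM in iKO against 5054 CPM in Ctrl at day 3, and to 4237 CPM in iKO against 4748 CPM in Ctrl at day 0. Olig1 made up most of each sum, at 2648 CPM in iKO against 2862 CPM in Ctrl at day 0. By gene, 8 of the 10 passed 2-fold downward in iKO at day 3. At day 0, 4 passed downward and 0 upward (median log2 ratio -0.59), among them Sox10 (-1.53) and Pdgfra (-1.35). The neuron markers summed to 929 CPM in iKO against 1756 CPM in Ctrl at day 3, and 5 of 9 measured passed 2-fold downward in iKO. At day 0 they summed to 979 CPM in iKO against 1088 CPM in Ctrl. Map2 made up most of each sum. By gene, 6 of the 9 had day 0 log2 ratios above 0 (median 0.39). Stmn2 alone passed 2-fold at day 0, upward, at 8.35 CPM in iKO against 2.31 CPM in Ctrl. Ependyma markers summed to 276 CPM in iKO against 71.8 CPM in Ctrl at day 3, and to 109 CPM in iKO against 53.4 CPM in Ctrl at day 0. Nearly all of each sum was Foxj1, at 266 CPM in iKO against 67.9 CPM in Ctrl at day 3. At day 0 Foxj1 was at 103 CPM in iKO against 50.9 CPM in Ctrl. Of the 4 measured markers, 2 passed 2-fold upward in iKO on each day.

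Markers of vessels, meninges and choroid plexus, which can also make these factors, were present at lower sums than the astrocyte, oligodendrocyte and neuron lists. Fibroblast and meningeal markers summed to 58.1 CPM in iKO against 16.4 CPM in Ctrl at day 3, and to 30.2 CPM in iKO against 17.5 CPM in Ctrl at day 0. Ogn made up most of the day 3 sum in iKO, with 670 counts in iKO and 35 in Ctrl at day 3, and 68 in iKO and 12 in Ctrl at day 0, and passed 2-fold upward on both days. Foxc1 had 351 counts in iKO and 245 in Ctrl at day 3, whereas Dcn and Lum had at most 2 counts in any library. Mural cell markers summed to 219 CPM in iKO against 241 CPM in Ctrl at day 3, and to 116 CPM in iKO against 46.6 CPM in Ctrl at day 0, above the level of Igf2 in each library. Most of it was Notch3, which neural stem cells also express, and at day 0 Acta2, Tagln, Rgs5 and Notch3, 4 of the 5 measured, passed 2-fold upward in iKO. At day 3 none of the 5 passed upward and Pdgfrb passed downward. Endothelial markers lay between 2.64 and 9.91 CPM in sum, with Slco1a4 at 102 counts in iKO and 7 in Ctrl at day 3, and microglia markers between 26.0 and 46.3 CPM. Choroid plexus markers summed to 42.5 CPM in iKO against 59.2 CPM in Ctrl at day 3, and to 17.0 CPM in iKO against 9.84 CPM in Ctrl at day 0, most of it from Otx2, which passed 2-fold upward between the days in both genotypes, while Ttr had at most 2 counts. None of the markers that were analysed was at 0 in all 4 libraries. The part of these markers in the values of the members was not tested.

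The genes whose profiles lay nearest to those of the 2 most variable members were found by the distance between log2(CPM + 1) values centred on their mean over the 4 libraries. For Igfbp3 these were Gas6 (distance 0.209), Phlda3 (0.259) and Piezo1 (0.322) among 12925 genes compared. Gas6 was at 179 CPM in iKO against 28.6 CPM in Ctrl at day 3, and at 165 CPM in iKO against 102 CPM in Ctrl at day 0. For Igfbp4 the nearest were Eif4ebp1 (0.135), Trim16 (0.177) and Dusp4 (0.238). Eif4ebp1 was at 40.1 CPM in iKO against 8.46 CPM in Ctrl at day 3, and at 44.8 CPM in iKO against 50.4 CPM in Ctrl at day 0. Each has the Ctrl library of day 3 as its lowest, like its member, which follows from picking it on these same values. Among the members themselves, the closest pair was Igfbp5 and Igfbp7 (0.464), followed by Igfbp2 and Igfbp4 (0.512), with Igfbp3 and Igfbp4 at 0.685. Over 4 libraries many genes lie close by such a measure.

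**Figure D5:**
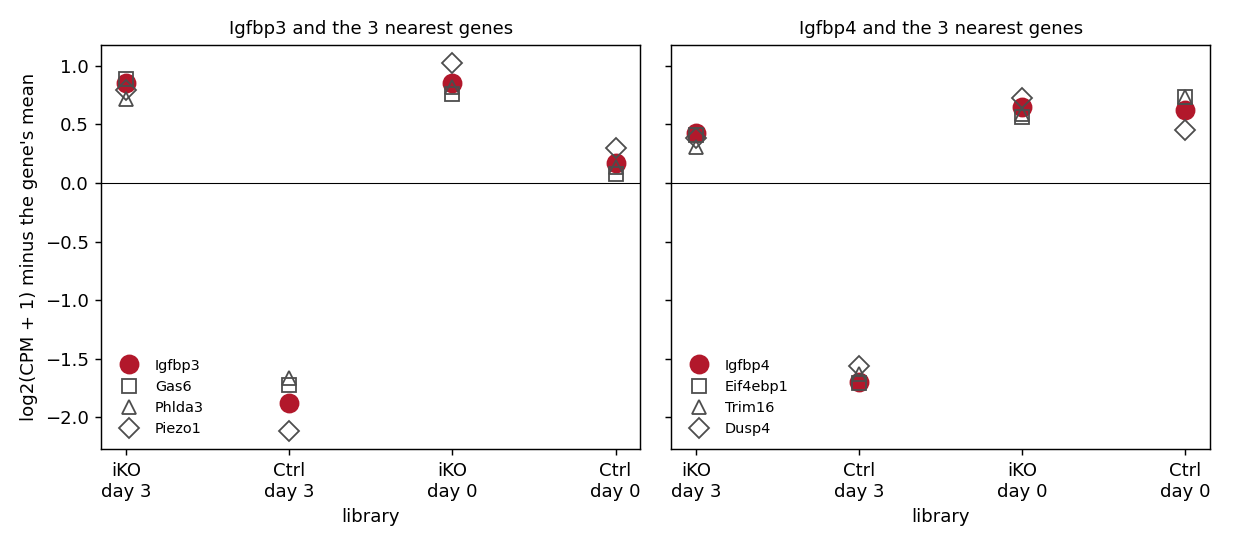
Log2(CPM + 1) centred on the mean of the 4 libraries for Igfbp3 and Igfbp4 and for the 3 genes nearest to each, with 1 library per point. The near genes were picked on these same values, and in both panels every gene has its lowest point in the Ctrl library of day 3.

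In the authors' deposited table for day 3, which lists 1774 genes, 4 members appear, all higher in iKO. That authors' deposited table gives log2 ratios of iKO to Ctrl of 2.66 for Igfbp3, 2.09 for Igfbp4, 1.56 for Igfbp2 and 1.49 for Igf2. In the authors' deposited table for day 0, which lists 103 genes, 0 members appear. The FDR in these tables compares 1 library with another and does not measure spread between cultures.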

How the data were processed

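Total RNA of 4 libraries was sequenced from kits of BGI, per the labels' protocols. HISAT, Bowtie2, StringTie and the mm10 build are named without versions, per the submitters' processing notes. The deposited files give an expected count and an expression value for each of 55122 RefSeq transcripts. The counter, its strand setting and any filters are not stated in those sources. The deposited expression value has no named unit and was taken as FPKM, since counts, lengths and values gave back between 99.8% and 100.0% of the library totals. The authors' deposited tables hold log2 ratios of iKO to Ctrl and an FDR (adjusted p-value) whose method is not stated.

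Groups were taken from titles and genotype labels. Expected counts were summed by gene, rounded and scaled with edgeR 4.0.16 (TMM factors 0.962 to 1.06) in R 4.3.3. Log2 ratios used CPM + 1, which understates ratios of low genes, over the 12976 genes whose mean reached 1 CPM, and 4645 were left out. A gene passed at a log2 ratio of 1 or more in size. Folds are CPM ratios without a pseudocount, with exact conditional intervals (Clopper-Pearson, scipy 1.17.1), and levels carry exact Poisson intervals. Ratio code was tested on simulated data. RefSeq GRCm38.p6 gave symbols, coordinates and promoters, and GENCODE M21 strands and overlaps. Named are all members, the 2 genes of each list with the largest ratios in a comparison and the 3 nearest profiles of 2 members, and text names part of them. Pappa, Pappa2, Igf1, Igfbp1, Igfals, Dcn, Lum, Ttr, Foxc1, Prom1, Hes5, Plagl1, Ogn, Notch3, Acta2, Tagln, Rgs5, Pdgfrb, Slco1a4, Otx2, Slc1a3, Vim, Fabp7, Map2, Apoe, Ctsd, Adam12, Hmga2 and Olig1 were named after their values were seen in the comparisons where the rule did not take them. Members and lists were chosen with earlier results of these data known. Alternatives were 2 pseudocounts, 2 minima, library totals, DESeq2 1.42.0 size factors, FPKM, and TMM without ribosomal protein and histone genes.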

Additional observations from a re-analysis of the deposited data

How the results depend on the processing

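Of 350 member values under 8 alternative settings, 5 changed sign, all of them below 2-fold, and 0 values past 2-fold changed sign. Those 5 were Igf1r at day 0 (library totals, FPKM), Insr at day 3 (both) and Igfbp3 between the days in iKO (0.01 with DESeq2 size factors). In size, 49 of the 350 moved by at least the distance from the middle to the end of their log2 interval of counting error. The ratio of iKO to Ctrl for Igfbp3 at day 0 was 1.76-fold by FPKM, outside its interval of 1.58 to 1.64. The day 3 log2 ratio of iKO to Ctrl ranged between 2.65 and 2.74 for Igfbp3, 1.96 and 2.16 for Igfbp4 and 1.56 and 1.64 for Igfbp2. That of Igf2 ranged between 0.48 and 1.46 at day 3 and 0.93 and 2.10 at day 0. With a pseudocount of 0.1 CPM, 706 genes were higher and 80 lower in iKO at day 0, and 1 member (Igf2) was lower at day 3 in iKO. With 5 CPM, 111 were higher and 13 lower at day 0, with 0 members higher, 430 were higher and 358 lower at day 3, and 1213 were higher at day 3 than day 0 in Ctrl. With a minimum of 5 CPM, which leaves out Igf2 and Igfbp7, 0 members were higher at day 0. With library totals, 25 genes were lower at day 0, and 0 members were higher at day 3 in iKO. With FPKM, 19 genes were lower at day 0 and 477 higher at day 3. Between the days in iKO, 932 were then higher, with 0 members among these 932. The median of all genes shifted by 0.12 at day 0 and -0.13 between the days in iKO with library totals, and by 0.11 and -0.12 with FPKM.

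No paired analysis was possible because each group has 1 library and the labels give no replicate numbers. The spread between cultures was not measured. Depth limits Igfbp6, Igf2 and Igfbp7.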
